A study of Homo sapiens with 4 samples.

Results

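Collagens, laminins and integrins are the fibres, sheets and anchors through which a cell holds on to its surroundings. The family was taken by name from the annotation, with symbols of GENCODE 44 on GRCh37 for the GENCODE 19 identifiers that were counted. It holds every protein-coding gene whose symbol is COL, LAMA, LAMB, LAMC, ITGA or ITGB followed by a chain number or, for ITGA, a letter code. Left out were COL4A3BP and the ITGB1BP and ITGB3BP genes, which only share the name. This gave 82 genes of the 57820 counted, namely 44 collagen, 12 laminin and 26 integrin genes, and 46 of them carried enough counts to be tested. The rule uses names only and no measured value.

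The RNA came from SY5Y cells, a human neuroblastoma line without MYCN amplification. Cells had been kept for 12 h with the solvent DMSO (2 libraries) or with SGSS05-NS (2 libraries). This name, from the labels, is taken here to mean SGSS05-NS3. The paper describes SGSS05-NS3 as a covalent inhibitor of the histone H4 lysine methyltransferase SETD8. It also lists an SGSS05-NS in the same compound series, and the identity was not settled. The labels, like legends in the paper, give 3 μM, in a protocol text that the DMSO libraries carry too. The methods name a lower dose for these cells, and which of them the libraries received was not settled. All 4 libraries are of 1 cell line with no genetic change, so the comparison is of compound against solvent.

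Collagen chains wind into triple helices that are folded and hydroxylated in the endoplasmic reticulum before secretion. Fibrillar collagens build tensile fibres, collagen IV forms the network of basement membranes, and laminins, each an alpha, a beta and a gamma chain, form the sheet that lies against the cell. Integrins are alpha and beta pairs that bind these proteins outside the cell and the actin cytoskeleton inside it, and neuroblasts use them to attach and migrate.

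In SGSS05-NS treated cells 1 member rose and 6 fell at an adjusted p under 0.001 (Benjamini-Hochberg) in edgeR's quasi-likelihood test. COL7A1, the anchoring fibril collagen, rose about 10-fold. Both chains of the basement membrane collagen IV (COL4A1 and COL4A2), the fibrillar chain COL5A2, the basement membrane collagen COL18A1 and the integrin alpha chains ITGA9 and ITGA1 fell. The 7 called members were 15.2% of the 46 tested, beside 14.5% of all 16468 genes tested, so that as a count the 3 families together moved about as often as any gene. The direction was less even: 2.17% of tested members were called higher beside 6.37% of all genes, and 13.0% lower beside 8.14%. At an adjusted p under 0.05, 8 members were higher (17.4%, beside 22.6% of all genes) and 11 were lower (23.9%, beside 23.7%). These groups are bulk RNA, in which fewer expressing cells and less RNA per cell cannot be told apart.

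Gene totals were between 21463105 and 25350204 counts per library. Levels are given in CPM, the count of a gene scaled to the TMM-normalized size of its library. Replicates of a condition differed by more than counting error, with a chi-square of 8.76 per degree of freedom for DMSO and 11.8 for SGSS05-NS. Of 10 markers of noradrenergic neuroblastoma 9 stood above 1 CPM in every library, with a summed level of 4143 to 4488 CPM in DMSO and 2488 to 2528 CPM in SGSS05-NS, while TH was near 0. Of 10 markers of fibroblast or Schwann-like stroma, which are major sources of fibrillar collagen, 4 exceeded 1 CPM in all libraries and DCN and SOX10 were at 0. Their sum, mostly PDGFRA and PDGFRB, was 238 to 239 CPM in DMSO and 126 to 158 CPM in SGSS05-NS. Others of the list went the other way, with ACTA2 at 2.39 and 1.41 CPM in DMSO and 19.8 and 9.61 CPM in SGSS05-NS and TAGLN at 0.478 and 0.770 against 1.44 and 1.87 CPM, and the part of these markers in the results was not tested. No leukocyte marker (of 8) or endothelial marker (of 5 matched) exceeded 1 CPM in every library, with CD3E and TYROBP at 0. The leukocyte sum was 0.319 to 0.471 CPM in DMSO and 1.31 to 1.45 CPM in SGSS05-NS, mostly CD14 (7 and 9 counts against 25 and 29), and the endothelial sum was 0.319 to 0.514 and 0.298 to 0.496 CPM. Of 6 epithelial markers 1 did, with KRT5 and KRT8 at 0 and sums of 2.39 to 3.00 CPM in DMSO and 3.51 to 4.55 CPM in SGSS05-NS. Fragments outside annotated exons of the counted strand were 12.3% to 12.4% of each DMSO library and 15.3% to 16.1% of each SGSS05-NS library. They include fragments on exons of the opposite strand only.

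Among the collagens, COL7A1 (chromosome 3 of GRCh37, 48601506 to 48632762, minus strand) encodes the single chain of collagen VII, which fastens epithelial basement membranes to the tissue beneath. It had 31 and 16 counts under DMSO and 248 and 200 with SGSS05-NS, that is 0.960 ± 0.389 CPM (SD, n = 2) and 9.84 ± 1.89 CPM. Both treated libraries stood far above both controls. The log2 fold change was 3.34 (SE 0.27, adjusted p = 2.4e-06 in edgeR's quasi-likelihood test), higher than 99.4% of the tested genes of 20 to 100 kb. Its exons, 113 in the merged annotation, lie within 31.3 kb.

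COL4A1 and COL4A2 encode the chains of the most widespread collagen IV protomer and stand head to head on chromosome 13, COL4A1 on the minus strand (110801310 to 110959504) and COL4A2 on the plus strand. COL4A1 measured 72.8 and 74.7 CPM in DMSO and 37.8 and 30.1 CPM in SGSS05-NS. COL4A2 measured 198 and 199 CPM in DMSO and 96.0 and 83.2 CPM in SGSS05-NS. In both genes the DMSO replicates lay close together, the SGSS05-NS replicates less so, and the groups were well apart. COL4A1 fell by 1.12 on the log2 scale (SE 0.11, adjusted p = 1.5e-05 in edgeR's quasi-likelihood test) and COL4A2 fell by 1.15 (SE 0.10, adjusted p = 4.7e-06). The pair kept its proportion: each library held between 2.54 and 2.77 counts of COL4A2 for each count of COL4A1. The other collagen IV genes, arranged in the same way, were all but silent, with 0 counts of COL4A3 and COL4A4 in all libraries, 1 count of COL4A5 in 1 SGSS05-NS library and 1 of COL4A6 in the other.

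Start sites differ between annotations: GENCODE, used for spans, puts that of COL4A2 at 110958159, within COL4A1, and also differs for COL4A4 and COL4A6. By RefSeq, 418 bases separate COL4A4 and COL4A3, and 379 separate COL4A6 and COL4A5. The RefSeq start sites of COL4A1 and COL4A2 are separated by 126 bases (chr13:110959505-110959630, GRCh37, plus strand). This shared stretch is shown because both called chains are transcribed away from it; 80.2% of its bases are G or C, and the capitals mark a CCAAT box and a GC box (GGGCGG).

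COL4A1-COL4A2: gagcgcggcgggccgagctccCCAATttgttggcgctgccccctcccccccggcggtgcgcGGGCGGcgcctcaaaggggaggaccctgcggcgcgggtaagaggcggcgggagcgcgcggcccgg

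In the plus strand direction the CCAAT box begins 22 bases after the start of COL4A1 and the GC box 62 bases after it. Searched on both strands of the 250 bases before and 10 after each start site in the RefSeq table (GRCh38.p14), GGGCGG was found in 43.1% of 35116 promoters and in 53.2% of the 77 promoters of members. CCAAT was found in 32.7% and 22.1%.

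COL5A2 (chromosome 2, 189896624 to 190090038, minus strand), a chain of the collagen V that nucleates collagen I fibrils, had 173 and 133 counts in DMSO and 34 and 39 in SGSS05-NS. The treated libraries held 1.60 ± 0.0892 CPM (SD, n = 2) and the controls 6.29 ± 0.850 CPM, without overlap. It fell by 1.98 on the log2 scale (SE 0.22, adjusted p = 2.7e-05 in edgeR's quasi-likelihood test), and only 0.236% of the tested genes of 100 to 200 kb had a lower value. Its partner chain COL5A1 stood at 0.678 and 0.770 CPM in DMSO and at 0.676 and 0.255 CPM in SGSS05-NS, a log2 difference of -0.64 (SE 0.44, adjusted p = 0.26 by the same test) between overlapping groups.

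COL18A1 (chromosome 21, 46825080 to 46933634, plus strand), the source of endostatin, had 323 and 323 counts in DMSO and 179 and 165 in SGSS05-NS. The levels were 13.3 ± 0.673 CPM and 7.54 ± 0.742 CPM (SD, n = 2), also without overlap. Its fall of 0.82 on the log2 scale (SE 0.15, adjusted p = 0.00083 in edgeR's quasi-likelihood test) had the highest adjusted p of the 7 calls. It held in 8 of 12 alternatives and was lost, for instance, without the second SGSS05-NS library.

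Fibrillar collagen I stayed at a trace level in these cells. COL1A1 had 21 and 22 counts in DMSO and 26 and 28 in SGSS05-NS, while COL1A2, which supplies the remaining chain of the collagen I trimer, had 22 and 29 counts in DMSO and 2 and 8 in SGSS05-NS. The ratio of COL1A2 to COL1A1 counts was 1.05 and 1.32 in DMSO and 0.0769 and 0.286 in SGSS05-NS. The log2 difference of COL1A2 was -2.24 (SE 0.49), the lowest of all tested members, but its adjusted p of 0.0030 in edgeR's quasi-likelihood test missed the threshold. COL1A2 was above the count filter only through its DMSO libraries, and its log2 difference was -1.62 without the first SGSS05-NS library and -3.47 without the second. COL3A1 (log2 difference -0.32, SE 0.32) had overlapping groups.

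The beaded filament collagen VI was the other abundant collagen, and its chains were not called. COL6A1 stood at 46.4 and 49.7 CPM in DMSO and 49.2 and 56.4 CPM in SGSS05-NS, a log2 difference of 0.14 (SE 0.10, adjusted p = 0.30 in edgeR's quasi-likelihood test). COL6A2 stood at 38.5 and 36.2 CPM in DMSO and 45.5 and 42.6 CPM in SGSS05-NS, a log2 difference of 0.24 (SE 0.10, adjusted p = 0.071). The groups overlapped for COL6A1 and not for COL6A2, and both adjusted p-values missed the threshold. Their usual partner COL6A3 had at most 3 counts in any library. Per kilobase of exon, the collagens summed to 37.2 and 37.8 CPM per kb in DMSO and 31.0 and 30.3 in SGSS05-NS. Within that sum COL4A2 went from 27.5% to 15.2% and COL4A1 from 13.4% to 7.55%, while COL6A1 went from 23.1% to 31.1% and COL6A2 from 18.7% to 27.0%. The leading collagen by level per kb was thus COL4A2 in DMSO and COL6A1 in SGSS05-NS. This order depends on the divisor, the merged exons of all annotated transcripts, with 19.3 kb for COL4A2 and 5.54 kb for COL6A1. By CPM, COL4A2 led in SGSS05-NS too, with a mean of 89.6 against 52.8 for COL6A1.

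**Figure D1:**
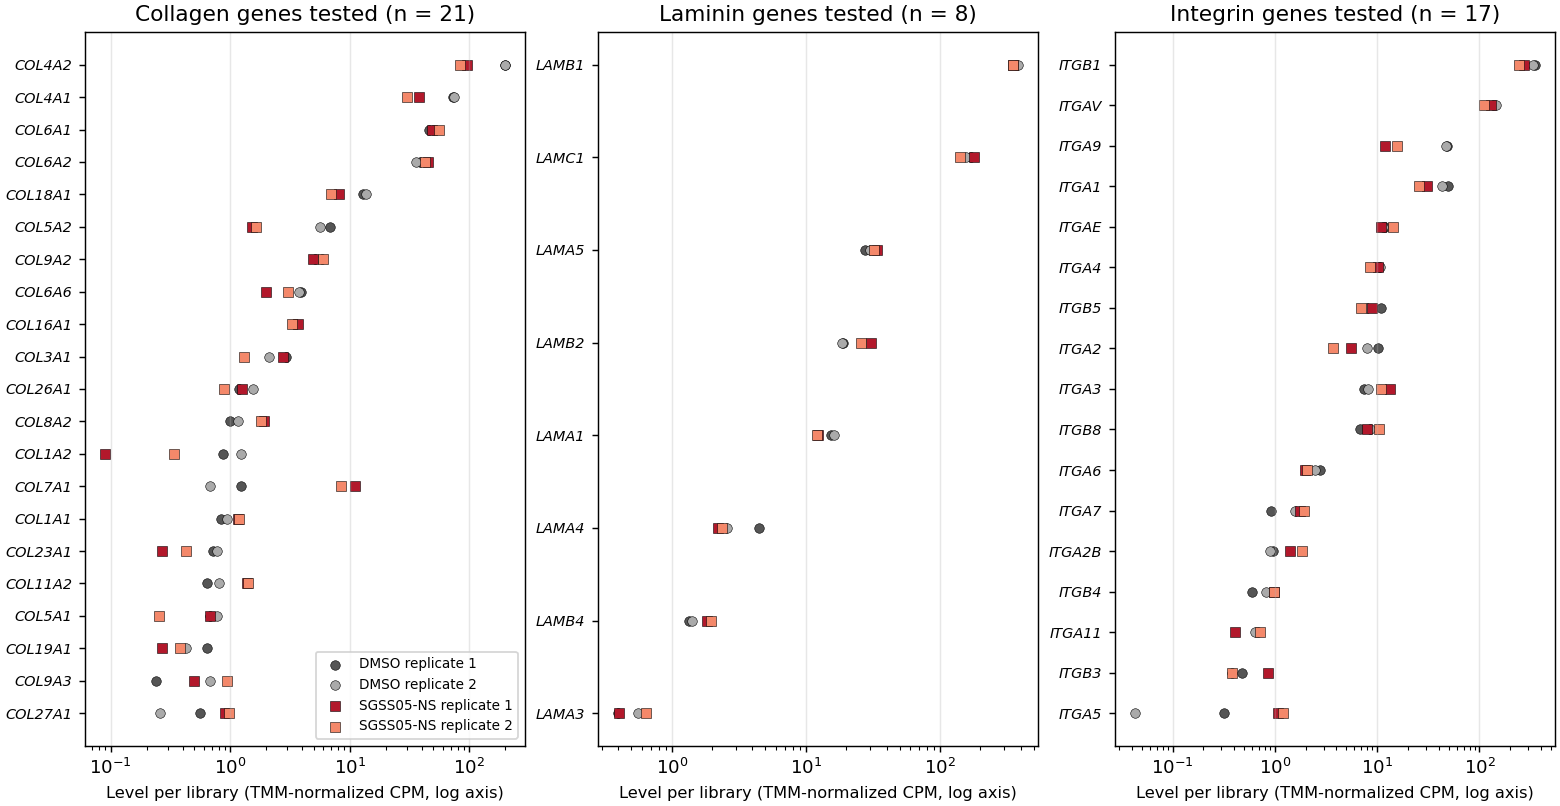
Level in each library (TMM-normalized CPM, log axis) of the 46 tested members by family, in the order of their DMSO level, with circles for DMSO and squares for SGSS05-NS. COL4A1, COL4A2, ITGA9 and ITGA1 are abundant and lower in both SGSS05-NS libraries, while the points of LAMC1 overlap at 142 to 180 CPM.

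Of the remaining collagens tested, none was called. COL27A1 (fibrillar, expressed in cartilage) had 14 and 6 counts in DMSO and 20 and 23 in SGSS05-NS, COL11A2 16 and 19 against 31 and 33, and COL8A2 25 and 27 against 43 and 43. These were the collagens with adjusted p between 0.001 and 0.05 in edgeR's quasi-likelihood test on the higher side, with log2 differences of 1.18, 0.95 and 0.81. On the lower side COL23A1, a transmembrane collagen, had 18 and 18 counts in DMSO and 6 and 10 in SGSS05-NS (log2 difference -1.08, adjusted p = 0.045 in edgeR's quasi-likelihood test). COL23A1 was above the count filter only through its DMSO libraries. COL27A1 was above it in both SGSS05-NS libraries but not in the second DMSO library, with 6 counts. The fibril-associated COL9A2 and COL16A1 differed by -0.01 and 0.01 on the log2 scale (SE 0.19 and 0.20).

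The other 23 collagen genes were not tested, and 8 of them (COL4A3, COL4A4, COL5A3, COL8A1, COL10A1, COL13A1, COL21A1 and COL25A1) were at 0 in every library. A pair of collagen genes had 0 counts in both DMSO libraries and several in both SGSS05-NS libraries. COL20A1 had 7 and 11 counts, 6.36-fold above a floor of 3 counts over the DMSO group. COL2A1, the cartilage fibrillar collagen, had 6 and 6, 4.24-fold above that floor. The floor stands in for the 0 counts in DMSO. Counting error of the SGSS05-NS counts is not covered, so these ratios are not lower bounds. They were formed only for members low in DMSO, with no counterpart for falls. In the other direction, the untested COL22A1 had 3 and 3 counts in DMSO and 0 and 0 in SGSS05-NS.

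Of the 8 laminins tested, 0 were called in edgeR's quasi-likelihood test, beside 14.5% of all genes tested. At an unadjusted p under 0.05 there were 3 (LAMB2, LAMA1 and LAMA4), beside 53.5% of all genes tested, and edgeR's likelihood ratio test called 1, LAMB2. The laminins of these cells were chiefly LAMB1 and LAMC1, the beta and gamma chains of the most common laminins, which made up 44.1% and 42.2% of the summed laminin level per kb in DMSO and 41.2% and 41.7% in SGSS05-NS. LAMB1 stood at 375 ± 9.71 CPM in DMSO and 351 ± 1.66 CPM in SGSS05-NS (SD, n = 2), a log2 difference of -0.10 (SE 0.09). LAMC1 stood at 163 ± 9.41 and 161 ± 26.5 CPM, a log2 difference of -0.02 (SE 0.12), with overlapping groups. The summed level was 46.2 and 45.5 CPM per kb in DMSO and 48.3 and 43.2 in SGSS05-NS.

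LAMB2, the alternative beta chain, took 5.97% of that sum in DMSO and 9.04% in SGSS05-NS. It had 476 and 434 counts in DMSO and 685 and 610 in SGSS05-NS, with no overlap in CPM (18.8 ± 0.279 against 28.4 ± 3.49, SD, n = 2). Its log2 difference of 0.60 (SE 0.12, adjusted p = 0.0020 in edgeR's quasi-likelihood test) missed the threshold. Counts of LAMB2 per count of LAMB1 were 0.0515 and 0.0486 in DMSO and 0.0883 and 0.0737 in SGSS05-NS. Of the alpha chains, none of which was called, LAMA5 measured 28.7 ± 1.86 CPM in DMSO and 33.2 ± 1.12 CPM in SGSS05-NS (log2 difference 0.21, SE 0.11). LAMA1 measured 15.7 ± 0.588 and 12.2 ± 0.162 CPM (log2 difference -0.36, SE 0.13, adjusted p = 0.035 in edgeR's quasi-likelihood test), and LAMA4 was 4.50 and 2.57 CPM against 2.21 and 2.38 CPM (log2 difference -0.63, SE 0.28). LAMA2 and LAMB3 had at most 4 counts in any library, and LAMC3 had 9 counts over the DMSO libraries and 13 over the SGSS05-NS libraries, a ratio of scaled counts of 1.53 (95% exact binomial interval 0.605 to 4.06).

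Counted on the strand opposite to LAMA5, where ADRM1 and the antisense gene LAMA5-AS1 lie, fragments numbered 640 and 538 in DMSO and 962 and 1009 in SGSS05-NS. LAMA5 was the only one of 15 members with enough opposite-strand counts that was called in a separate fit of those counts (log2 fold change 0.53, SE 0.11, adjusted p = 0.00085 in edgeR's quasi-likelihood test), in which 9.43% of 7200 genes were called in either direction. These fragments were not part of the value of LAMA5 itself.

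Integrins were led by ITGB1, the beta chain that pairs with most of the alpha chains measured here. It made up 50.1% of the summed integrin level per kb in DMSO and 50.7% in SGSS05-NS. ITGB1 stood at 346 and 336 CPM in DMSO and at 273 and 244 CPM in SGSS05-NS, lower in both treated libraries, with a log2 difference of -0.40 (SE 0.10) and an adjusted p of 0.0052 in edgeR's quasi-likelihood test that missed the threshold. The summed integrin level was 47.3 and 46.2 CPM per kb in DMSO and 36.4 and 33.5 in SGSS05-NS.

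ITGA9 (chromosome 3, 37493606 to 37864998, plus strand), whose product pairs with beta 1 and binds tenascin C and osteopontin, had 1195 and 1100 counts in DMSO and 263 and 365 in SGSS05-NS. The levels were 47.4 ± 0.385 CPM and 13.7 ± 2.59 CPM (SD, n = 2), far apart. It fell by 1.79 on the log2 scale (SE 0.13, adjusted p = 1.2e-06 in edgeR's quasi-likelihood test). Its share of the summed integrin level went from 12.3% to 4.73%, and counts of ITGA9 per count of ITGB1 were 0.138 and 0.140 in DMSO and 0.0435 and 0.0637 in SGSS05-NS. ITGA4, the closest relative of ITGA9, stood at 10.4 and 10.7 CPM in DMSO and 10.1 and 8.55 CPM in SGSS05-NS (log2 difference -0.18, SE 0.15).

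The collagen-binding alpha chains ITGA1, ITGA2 and ITGA11 all had log2 differences below 0. ITGA1 (chromosome 5, 52083750 to 52255039, plus strand), whose product binds collagen IV, had 1243 and 1010 counts in DMSO and 689 and 606 in SGSS05-NS, or 46.4 ± 4.46 CPM and 28.4 ± 3.73 CPM (SD, n = 2). The groups did not overlap, and ITGA1 fell by 0.71 on the log2 scale (SE 0.12, adjusted p = 0.00055 in edgeR's quasi-likelihood test). It was called in 10 of 12 alternatives, not without the second SGSS05-NS library, and 5.77% of its exon bases are shared on the same strand with PELO and RPL17P21. ITGA2, the other main collagen receptor chain, stood at 10.2 and 8.05 CPM in DMSO and 5.54 and 3.70 CPM in SGSS05-NS (log2 difference -0.99, SE 0.21, adjusted p = 0.0025, not called). ITGA11 had overlapping groups (log2 difference -0.22, SE 0.39).

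Among receptors for the RGD motif of fibronectin and vitronectin, ITGAV was the most abundant, at 137 and 147 CPM in DMSO and 131 and 112 CPM in SGSS05-NS (log2 difference -0.22, SE 0.10, adjusted p = 0.092 in edgeR's quasi-likelihood test). ITGA5, the alpha chain of the classical fibronectin receptor, was nearly absent from DMSO cells, with 8 and 1 counts, and had 24 and 28 counts in SGSS05-NS. The ratio of its scaled counts was 6.12 (95% exact binomial interval 2.99 to 14.1, counting error only). Such ratios were formed only for members low in DMSO, so the interval is no test of a rise. The fitted log2 difference of 2.58 (SE 0.52, adjusted p = 0.0018) missed the threshold, and the gene passed the count filter only through its SGSS05-NS libraries. It was called in 5 of 11 alternatives, and its log2 value rested on the DMSO libraries, at 4.56 without the first of them (called) and 1.80 without the second. ITGA2B, an alpha chain of platelets, had 24 and 21 counts against 31 and 43 (log2 difference 0.80, adjusted p = 0.046 by the same test).

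Of the laminin-binding alpha chains, ITGA3 stood at 7.49 and 8.22 CPM in DMSO and 13.2 and 11.0 CPM in SGSS05-NS. The groups did not overlap (log2 difference 0.62, SE 0.16, adjusted p = 0.0064 in edgeR's quasi-likelihood test, not called). ITGA6 and ITGA7 differed by -0.39 (SE 0.23) and 0.56 (SE 0.31). None of the 5 tested integrin beta genes was called, beside 14.5% of all genes tested. Apart from ITGB1, the log2 differences of ITGB3, ITGB4, ITGB5 and ITGB8 lay between -0.26 and 0.50. Of the exon bases of ITGB3, 33.2% are shared with a read-through gene. ITGB6, not tested, had 10 and 16 counts in DMSO and 7 and 3 in SGSS05-NS. Of the alpha chains best known from leukocytes, ITGAE, whose product binds E-cadherin, stood at 11.9 and 11.5 CPM in DMSO and 11.0 and 14.4 CPM in SGSS05-NS (log2 difference 0.12, SE 0.15). ITGAX and ITGAD were at 0 in all libraries, and ITGAM, ITGAL and ITGB2 had at most 6 counts in any library.

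Near the threshold, 6 of the 46 members had adjusted p from 0.001 to 0.01 in edgeR's quasi-likelihood test, beside 15.5% of all genes tested. ITGA5, LAMB2 and ITGA3 were on the higher side and COL1A2, ITGA2 and ITGB1 on the lower. Each was called in some alternatives, from 1 of 12 (ITGA3) to 5 of 12 (ITGA2). Leaving out 1 library called LAMB2 (0.72 without the second SGSS05-NS library), ITGB1 (-0.49 without the first), COL1A2 (-2.49 without the first DMSO library) and ITGA2 (-1.16 without the second DMSO and -1.31 without the first SGSS05-NS library). By family, the median log2 fold change was -0.32 for 21 collagens, 0.06 for 8 laminins and -0.18 for 17 integrins, beside 0.01 over all genes tested. The families were not tested against each other.

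**Figure D2:**
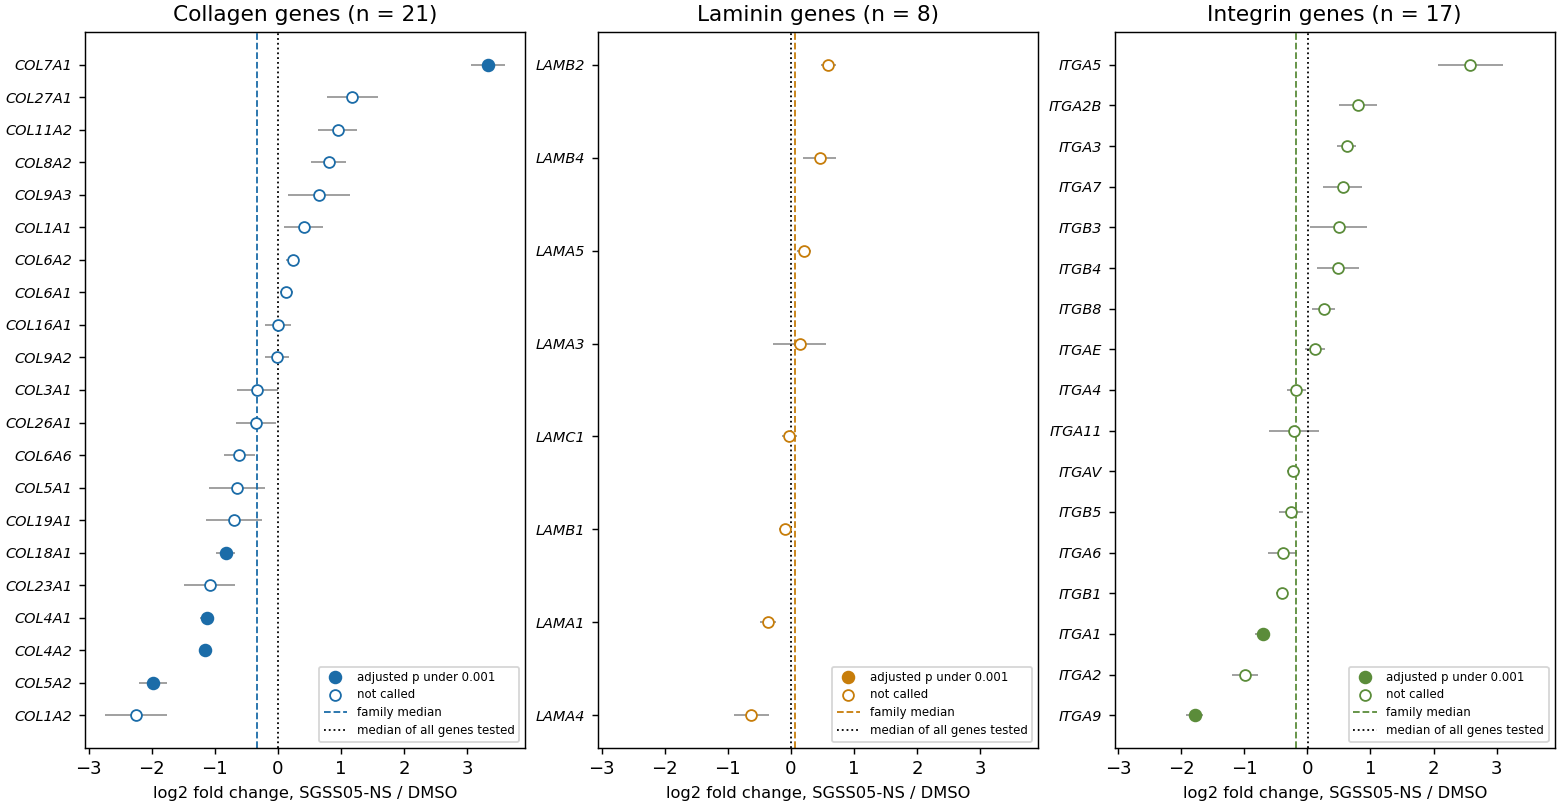
Log2 fold change (SGSS05-NS against DMSO) of the 46 tested members, grouped by family, with lines of 1 SE from the quasi-likelihood fit, called members filled, and vertical lines at the median of the family (dashed) and of all genes tested (dotted). COL7A1 is alone at the upper end at 3.34, and the 8 laminins lie between -0.63 and 0.60.

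The promoters of the members that rose or stood highest were read from RefSeq (GRCh38.p14, placed on GRCh37 by exact match), whose table holds 58 of the 82 members, 34 of them tested. The windows of COL7A1 (chr3:48632753-48633012, GRCh37, minus strand) and ITGA5 (chr12:54813041-54813300, GRCh37, minus strand) run from 250 bases before the start site to 10 after it and are shown because these genes have the largest positive log2 values. Capitals mark GC boxes (GGGCGG or its complement), a heat shock element pair (GAANNTTC) and an AP-1 site (TGANTCA).

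COL7A1: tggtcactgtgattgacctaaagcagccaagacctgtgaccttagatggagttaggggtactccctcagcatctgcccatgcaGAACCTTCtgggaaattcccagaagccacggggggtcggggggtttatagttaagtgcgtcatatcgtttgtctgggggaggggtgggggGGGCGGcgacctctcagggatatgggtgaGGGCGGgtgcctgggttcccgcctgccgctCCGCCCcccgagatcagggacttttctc
ITGA5: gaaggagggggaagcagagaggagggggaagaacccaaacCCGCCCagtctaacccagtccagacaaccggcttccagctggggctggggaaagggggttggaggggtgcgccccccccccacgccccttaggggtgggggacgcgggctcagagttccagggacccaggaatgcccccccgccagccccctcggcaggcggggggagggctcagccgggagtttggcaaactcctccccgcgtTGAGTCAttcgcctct

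COL7A1 has GC boxes that begin at -77, -48 and -18, a heat shock pair at -167 and, not capitalized, the complement of TATAAA at -124, and ITGA5 has an AP-1 site at -6 and a GC box at -210. Positions are those of the first base, and the base before the start site is -1. The AP-1 letters stand in 6.92% of all 35116 promoters and in 4 of the 77 promoters of members (5.20%). The heat shock pair stands in 5.94% and 7.79%, TATAAA in 10.9% and 13.0%, and the p53 decamer, also searched, in 5.80% and 1.30%. These matches describe the letters of the windows and are not evidence of binding.

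Gene span, from the first to the last annotated base, ran with the log2 fold change. Across the 46 tested members Spearman's rho was -0.69, a description over genes that share the same 4 libraries. It was -0.63 over 21 collagens, -0.60 over 8 laminins and -0.88 over 17 integrins, and -0.62 over the 39 members that were not called. Over all 16042 tested genes with a span it was -0.22, and -0.40 over the 10322 genes whose span lay in the members' range of 12.0 to 371 kb. Exon length gave -0.23 in the members and -0.09 over all genes. By family it gave -0.18 over the collagens, -0.62 over the laminins, as large as for span, and -0.27 over the integrins. The 21 members with log2 values above 0 had a median span of 34.5 kb and the 25 below 0 a median of 139 kb.

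By class of span, 0 of 4 members under 20 kb were called, where 7.92% of all such genes were higher and 4.56% lower. Of 21 members of 20 to 100 kb, 1 was called higher (COL7A1) and 0 lower, beside 7.00% and 3.17% of all genes of that span. Of 15 members of 100 to 200 kb, 0 were called higher and 4 lower (26.7%), beside 1.83% and 15.2%. Of 6 members over 200 kb, 0 were called higher and 2 lower (33.3%), beside 0.964% and 46.4%. All 6 called lower thus spanned over 100 kb, from the 109 kb of COL18A1 to the 371 kb of ITGA9, as genes of this size were also called lower more often in the whole table. Median log2 values were 0.50, 0.24, -0.40 and -0.89 from the shortest class to the longest in the members, and 0.13, 0.05, -0.27 and -0.78 in all genes.

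Exceptions to the order stood on both sides. COL1A2, with a span of 36.3 kb, had the lowest log2 value of all members, and COL27A1, with 157 kb, had a value of 1.18. LAMC1 spans 122 kb and differed by -0.02, against -1.12 for COL4A1 with 158 kb. COL4A2, with 207 kb, stood at the 28.1 percentile of genes over 200 kb, while COL4A1 stood at the 2.96 percentile and COL5A2 at the 0.236 percentile of genes of 100 to 200 kb. The log2 values of COL4A1 and COL4A2 were alike (-1.12 and -1.15), but the 2 genes fall on either side of the class limit of 200 kb. The all-gene medians of these classes were -0.27 and -0.78. Span moved with these results, and its part in them was not tested.

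**Figure D3:**
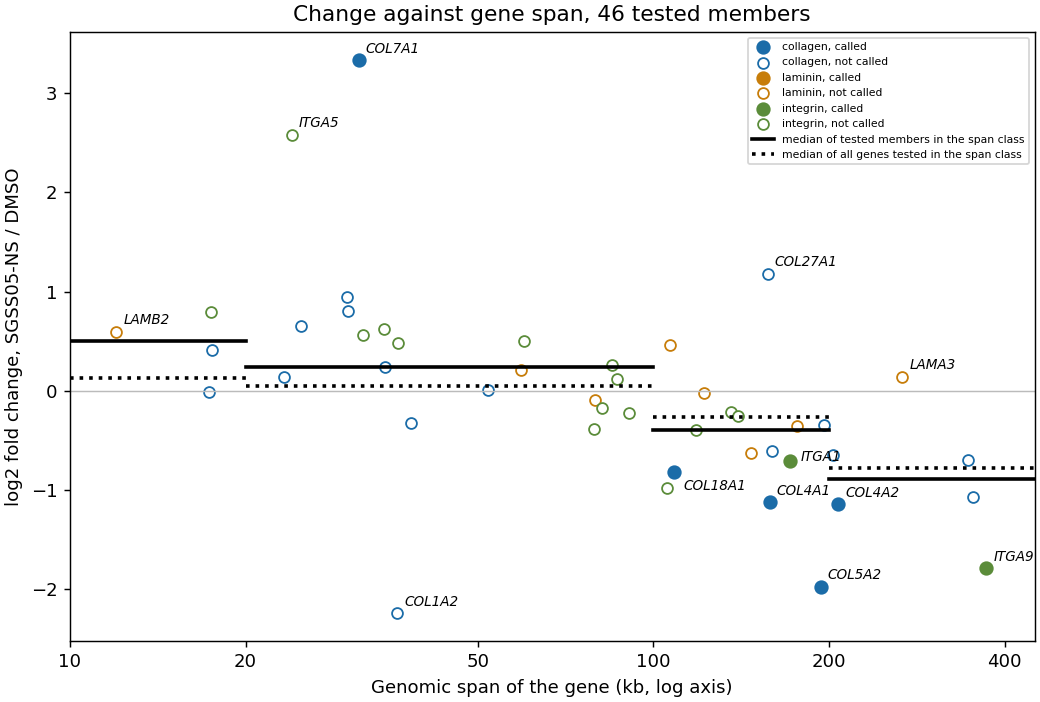
Log2 fold change (SGSS05-NS against DMSO) against gene span (kb, log axis) for the 46 tested members, coloured by family and filled where called, with lines at the median of each span class for members (solid) and all genes tested (dotted). Members under 100 kb lie mostly above 0 and members over 100 kb mostly below, with COL1A2 (36.3 kb, -2.24) and COL27A1 (157 kb, 1.18) far from that order.

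Proteins that work with these families gave calls of both directions, counted in the same fit and read against the same 6.37% and 8.14%. Counts at an adjusted p under 0.05 are read against 22.6% of all genes higher and 23.7% lower. Those shares take no account of gene span. Of 26 tested genes for collagen folding, modification and export 3 rose and 0 fell. SERPINH1, the collagen chaperone HSP47, rose from 59.6 and 51.9 CPM to 414 and 400 CPM (log2 fold change 2.87, SE 0.11, adjusted p = 5.2e-09 in edgeR's quasi-likelihood test). It is also a heat shock gene. P4HA2, a prolyl hydroxylase subunit, rose by 2.07 on the log2 scale and MIA3, which loads collagen for export, by 0.51. At an adjusted p under 0.05 this list had 7 higher and 5 lower, with a median of 0.02.

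Of 23 tested genes for other matrix proteins 0 rose and 2 fell, the fibrillin FBN1 (log2 fold change -1.32) and the basement membrane protein FRAS1 (-1.07). At an adjusted p under 0.05 in edgeR's quasi-likelihood test 1 was higher and 9 were lower, and the median was -0.28. Of 34 tested integrin partners 3 rose and 7 fell. The focal adhesion protein ZYX (log2 fold change 1.64), the actin crosslinker FLNC (1.04) and the scaffold BCAR1 (0.69) rose. The tensin TNS3 (-2.25), the talin TLN2 (-1.50), the focal adhesion kinase gene PTK2 (-1.03), RSU1, TNS1 and FYN were among those that fell. Of 16 tested matrix receptors of other families SDC1 rose (0.55) and the proteoglycans GPC6 (-1.86) and SDC2 (-1.21) fell. Of 24 tested matrix proteases and inhibitors 4 rose and 4 fell. Among those that rose, PLAT, PLAU and MMP15 had log2 fold changes of 2.03, 1.83 and 1.23, and MMP16, ADAM12, ADAMTS9 and TIMP3 fell, with log2 fold changes of -1.35, -1.42, -1.60 and -0.86. TNS3, TLN2, PTK2, RSU1, TNS1, FYN, FBN1, FRAS1, GPC6, MMP16 and ADAM12, all lower, span over 200 kb. Among all genes of that span 46.4% were called lower. In that class PTK2 stood at the 35.7 percentile of log2 values, FYN at the 45.6 and TNS3 at the 2.02. SDC2, ADAMTS9 and TIMP3 span 118, 172 and 61.3 kb. The part of span in these calls was not tested.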

How the data were processed

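RNA of SY5Y cells was sequenced in 4 libraries (DMSO and SGSS05-NS, 2 each), which the methods call independent biological replicates. The labels name a TruSeq RNA kit and the methods a stranded kit with ribosomal RNA removal. Per the methods and the submitters' processing notes, the authors trimmed reads with Trimmomatic 0.30 and aligned them to hg19 with STAR 2.4.2a. The deposited values are raw fragment counts per gene, without normalization or pooling: 1 unstranded column and 1 per strand, below 4 summary rows that were left out here. Multi-mapped fragments are not counted, which lowers genes with near-identical copies.

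Reverse-strand counts were tested in R 4.3.3 with edgeR 4.0.16 (genes kept by filterByExpr, TMM scaling, quasi-likelihood test without other terms, Benjamini-Hochberg over all genes tested, threshold 0.001). Opposite-strand fragments were 4.64% to 5.05% of those counted on either strand. The SE is the size of the log2 fold change divided by the root of F. Exact binomial intervals (95%) cover counting error only. Ratios of scaled counts and ratios to the floor were formed only for members with under 10 DMSO counts and at least 10 SGSS05-NS counts, each summed over the group. Positions, spans and exon lengths came from GENCODE on GRCh37, in which 55538 of 57820 identifiers matched. RefSeq promoters of GRCh38.p14 were placed on GRCh37 by exact match of their letters. The test was checked on simulated counts.

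Named genes are all called members, in each family the 3 with the highest level per kb of exon and the 3 with the largest log2 difference, chains of 1 trimer or head-to-head pair, and the 3 called partner genes with the smallest p in each direction. Other members are named where a count of 5 or fewer refers to them, and COL22A1 and ITGB6 as untested members with fewer counts in SGSS05-NS. The members, gene lists and thresholds were chosen with earlier results of these data known. Older symbols LEPREL1, TANGO1 and ICAP1 had no match. As alternatives, DESeq2 1.42.0, its size factors in edgeR, the likelihood ratio test, library size only, the unstranded column, no count filter, a minimum of 10 counts per library, the replicate block, a threshold of 0.05 and leaving out each library were tried. The results of 3 genes are not reported here.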

Additional observations from a re-analysis of the deposited data

Results flagged for a closer look

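Opposite-strand counts entered the comparisons of the members only through the alternative without regard to strand. Fitted on their own, they gave 1 call among 15 members, beside 9.43% of 7200 genes: fragments on the strand opposite to LAMA5 had a log2 fold change of 0.53 (SE 0.11). The counts were 640 and 538 in DMSO and 962 and 1009 in SGSS05-NS. ADRM1 and LAMA5-AS1 are annotated on that strand.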

How the results depend on the processing

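With 2 libraries per condition, single genes with few counts are imprecise, and 36 members could not be tested at this depth. COL7A1, COL4A1, COL4A2, COL5A2 and ITGA9 were called in 12 of 12 alternatives. COL18A1 was not called by library size only, with at least 10 counts in every library, with counts without regard to strand or without SGSS05-NS replicate 2 (adjusted p up to 0.0059), nor ITGA1 by library size only (adjusted p = 0.0022 in edgeR's test) or without SGSS05-NS replicate 2 (0.0013). Against 1 member higher and 6 lower, the likelihood ratio test gave 4 and 8, no count filter 4 and 9, and the replicate block 3 and 8. Counts without regard to strand gave 2 and 5, DESeq2 1 and 7, and its size factors in edgeR 1 and 6. Library size only gave 1 and 4, at least 10 counts in every library 1 and 5, and a threshold of 0.05 gave 8 and 11. Leaving out a library, with the lone library assumed to vary like the other condition, gave 1 to 2 higher and 4 to 8 lower. Collagens higher (1) became 2 without a filter and 4 at 0.05, and 6 were lower at 0.05; they were 1 higher and 3 to 5 lower without 1 library. Laminins higher (0) became 1 by the likelihood ratio test, without a filter, with the replicate block and at 0.05, where 1 was lower, and 0 to 1 without 1 library. Integrins higher (0) became 2 by the likelihood ratio test, 1 without a filter, 1 with the replicate block, 1 with counts without regard to strand, 3 at 0.05 and 0 to 1 without 1 library; integrins lower (2) became 1 by library size only, 4 without a filter, 4 at 0.05 and 1 to 4 without 1 library.

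The collagen median (-0.32) was 0.0022 with at least 10 counts in every library and -0.34 to -0.10 without 1 library. The median with at least 10 counts leaves out COL1A2, COL5A1, COL19A1 and COL23A1, below 0 in the main fit, and COL9A3 and COL27A1, above 0. Each of them had a library under 10 counts. The middle member of those left was COL9A2, so the median of -0.32 rests in part on members with few counts. The cause of the other shifts was not tested. The laminin median (0.06) was -0.0084 and -0.0096 with at least 10 counts and without regard to strand, and -0.032 to 0.084 without 1 library. The integrin median (-0.18) was 0.043 without regard to strand and -0.18 to -0.021 without 1 library. The Spearman correlation with span (-0.69) was -0.82 with at least 10 counts, -0.23 for exon length and -0.68 to -0.65 without 1 library. At 0.05 the lists had 7 higher and 5 lower (collagen processing), 1 and 9 (other matrix), 8 and 13 (integrin partners), 6 and 5 (other receptors) and 7 and 5 (proteases and inhibitors). Over all genes tested the shares at 0.05 were 22.6% higher and 23.7% lower. Signs turned only for members that were not called: COL16A1 (-0.023 by DESeq2, -0.020 without a filter, -0.079 to 0.084 without 1 library), COL9A2 (0.019 by library size only, 0.0022 with at least 10 counts, -0.17 to 0.12 without 1 library), LAMC1 (0.016 by library size only, -0.21 to 0.14 without 1 library), ITGA11 (0.043 without regard to strand, -0.70 to 0.12 without 1 library), and without 1 library COL3A1 (-0.95 to 0.12), ITGAE (-0.091 to 0.29), ITGB3 (-0.18 to 0.97) and LAMA3 (-0.23 to 0.41). Of 542 values for single genes, 496 kept direction and call. Over all genes, no filter gave 2034 higher and 2570 lower, the likelihood ratio test 2022 and 2267, the replicate block 1759 and 2007. Deviations of same-numbered libraries correlated at 0.05, so the numbers were taken as names only. DESeq2 gave no adjusted p for 4 members.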
